A study of Mus musculus with 109 samples.

Results

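The 39 DNA repair genes described here were chosen by name, from a list of genes of 7 repair routes. No measured value entered that rule, but the list was drawn up with earlier results of these data known. All 39 of 39 were found among the 15973 genes of the count table. They were followed in cells collected as granule cell precursors (GCPs) from C57BL/6 mice at P7, prepared from whole cerebella on a percoll density gradient, captured singly on C1 Fluidigm chips and sequenced by Smart-seq, which copies the RNA of 1 cell into its own library. No treatment and no altered allele is named for any cell. The 109 cells carry labels of 6 library groups, here numbered 1 to 6, and the labels do not say whether a library group is a separate animal, litter or chip or one of the independent batches that the study describes, so that p-values over library groups measure the spread between these groups only. Cells were divided by Mki67, the gene of the KI67 antigen of cycling cells. A total of 32 cells held at least 100 CPM (counts per 1000000 counts of the cell) of Mki67 and are called Mki67-high, 75 cells held under 10 CPM and are called Mki67-low, and 2 cells lay between. Each library group gave 3 to 8 Mki67-high and 10 to 15 Mki67-low cells.

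GCPs divide rapidly in the outer part of the external granular layer and then leave the cell cycle to become granule cells (GCs). Dividing cells can mend a broken chromosome by homologous recombination, which copies the intact sister chromatid and is therefore tied to DNA replication and the phase after it. Non-homologous end joining, base excision repair and nucleotide excision repair also act in cells that no longer divide, and single-strand break repair is known to matter in cerebellar neurons, since loss of APTX or TDP1 causes ataxia in people. Mismatch repair corrects copying errors, and the Fanconi anaemia pathway removes links between the DNA strands ahead of the replication fork.

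The libraries held 1110182 to 8616017 counts in all cells but 1, a cell between the classes with 15071 counts. The libraries carry no molecular identifiers. The intervals given below pool the cells of a class, so they cover counting error only and leave out the spread between library groups. Mki67-high cells had a median of 4967.5 genes detected and 4157700 counts, and Mki67-low cells 4193 genes and 3580460 counts. The part of this gap in the results below was not tested, except by the thinning of every cell to 1110182 counts. Granule cell lineage genes (Atoh1, Barhl1, Zic1, Zic2, Pax6 and Meis1) summed to 1168 to 3256 CPM in the 6 sums of Mki67-high cells and to 1381 to 4120 CPM in those of Mki67-low cells. The 6 listed genes of postmitotic granule cells summed to 1913 to 5277 CPM in Mki67-high and 7035 to 11224 CPM in Mki67-low sums, and 66 of 75 Mki67-low cells and 29 of 32 Mki67-high cells held at least 3 of these 6 genes at 50 CPM or more. The Mki67-low class thus carried granule cell genes at a level without overlap with the other class, and stage and Mki67 class cannot be told apart here. The 7 listed genes of proliferating progenitors summed to 4488 to 10114.5 CPM in Mki67-high and 1042 to 4429 CPM in Mki67-low sums. At least 4 of these 7 were at 50 CPM or more in 17 of 32 Mki67-high and 10 of 75 Mki67-low cells. The Mki67-low class was therefore not free of progenitor genes. Mcm2 had a higher median in Mki67-low sums, 50.8 against 7.36 CPM. Some libraries stood apart. A pair of Mki67-high cells, in library groups 3 and 6, had 13533 and 12684 genes detected and held astroglial as well as microglial genes, 2 further Mki67-high cells held one or the other set, and 2 Mki67-low cells held astroglial genes. The summed CPM of the 6 listed microglial genes had a median of 71.8 over library groups in Mki67-high cells, and of 0.0221 in Mki67-low cells, and that of the 8 astroglial genes 935 and 548. Oligodendrocyte lineage genes had medians of 1098 and 495 CPM, with 3 Mki67-high cells that held at least 4 of the 7, and Purkinje cell and interneuron genes 0.464 and 164 CPM, with 2 Mki67-low cells that held at least 3 of the 5. Results are therefore also given for the 28 Mki67-high and 73 Mki67-low cells left without the libraries that stood apart by depth or by astroglial or microglial genes, and where named for the 27 and 71 cells left when those with oligodendrocyte, Purkinje cell or interneuron genes were removed too.

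Repair gene levels spread widely within routes, and the routes are set beside each other here by their top gene only. Levels between genes are compared here per kilobase of exon, from the counts of all 109 cells. Parp2 and Parp1, which sense DNA breaks and build poly(ADP-ribose), stood highest at 54.1 and 51.6 CPM per kilobase. Polb, the gap-filling polymerase of base excision repair, followed at 31.9, and Ercc1, part of the nuclease that cuts out damaged stretches in nucleotide excision repair, at 29.8. Nbn, the signalling subunit of the break-sensing MRN complex, reached 28.4 CPM per kilobase. The top gene of each other route was Xrcc5 for end joining at 24.7, Msh6 for mismatch repair at 24.2, Brca1 for homologous recombination at 14 and Fancd2 for the Fanconi anaemia pathway at 3.76 CPM per kilobase. Fanci stood lowest at 0.109, and base excision and single-strand break repair genes ran from Parp2 down to Lig3 at 0.473. The ranges over library groups were wide: Parp2 ran from 13.5 to 108 and Parp1 from 22.6 to 94.6, so that these 2 neighbours in the order did not differ beyond their spread. Ercc1 was among the most even, at 17.6 to 36.1 CPM per kilobase, whereas Xrcc5 ran from 0.00694 to 81.1. Brca1 ran from 0.162 to 47.1, which overlapped with the range of every other top gene of a route. Fancd2 ran from 0 to 13.48, below the whole range of Ercc1 and that of Parp2, which began at 13.53.

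**Figure D1:**
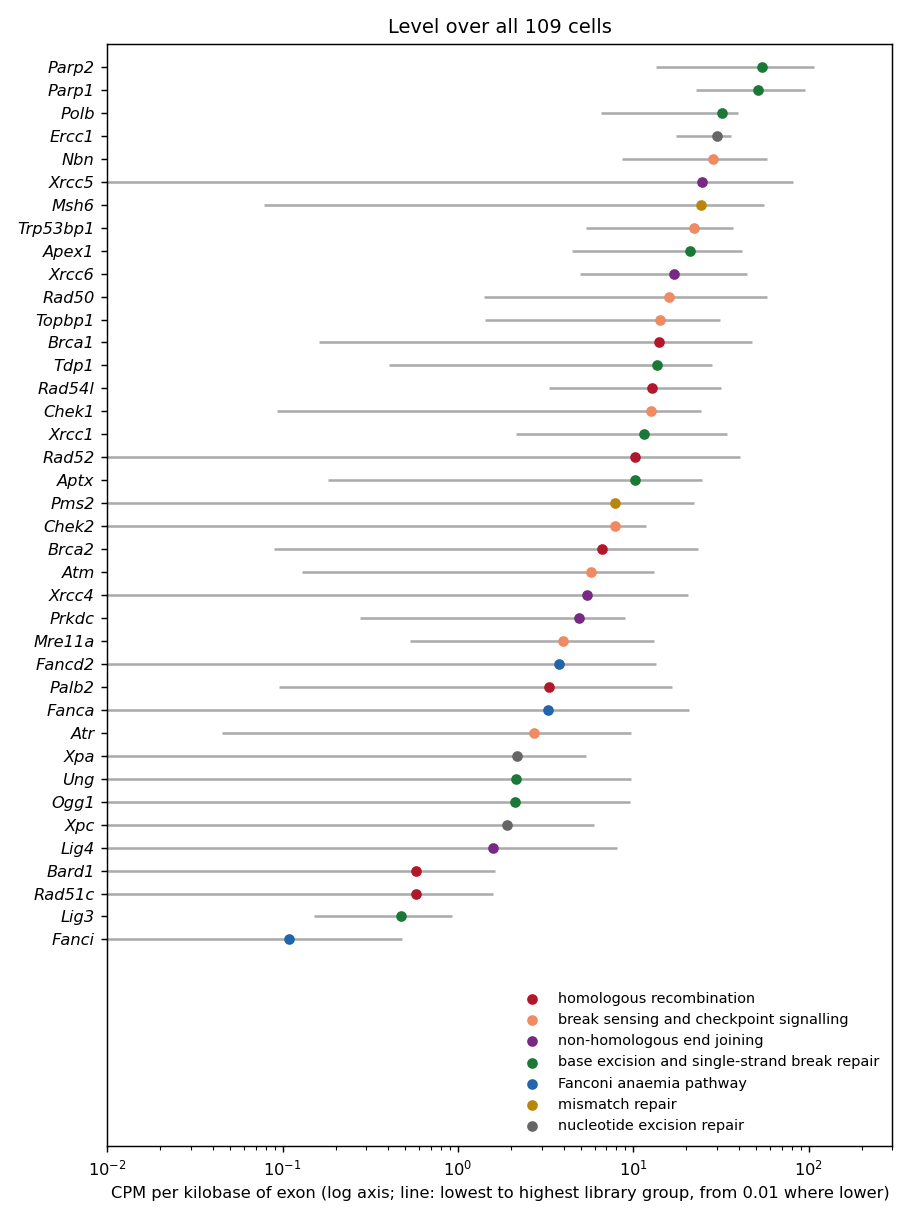
Level of each of the 39 repair genes in CPM per kilobase of exon (log axis) over all 109 cells, coloured by repair route, with lines from the lowest to the highest of the 6 library groups. Parp2 and Parp1 stand at the top at 54.1 and 51.6, Fanci at the bottom at 0.109, and most lines span more than a factor of 10.

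To ask how repair gene levels differ between Mki67-high and Mki67-low cells, the counts of all cells of a class were added up within each library group. This gave 6 sums a class, which were compared by edgeR's quasi-likelihood test. Of the 39 members, 34 passed the filter on low counts. Bard1, Lig4, Ogg1, Fanci and Xpa did not. No member was called at an adjusted p-value under 0.01 or under 0.05, and the lowest adjusted p-value of a member was 0.562. Over all 9084 genes tested, 2 genes were called at 0.01 (Tacc3 and Cdc20), which is 0.0220%, and 6 genes at 0.05, which is 0.0661%. In this fit 6 members had an unadjusted p-value under 0.05, beside 7.33% of all genes. Of the 6, Brca1, Tdp1, Nbn, Fanca and Palb2 were higher and Aptx was lower in Mki67-high cells. The background at that limit was 2.94% of genes higher and 4.39% lower. DESeq2 on the same sums also called no member at 0.01, and Brca1 and Nbn at 0.05, with adjusted p-values of 0.0274 and 0.0405. Those were 2 of 39 members, beside 724 of all 15972 genes at 0.05 and 372 at 0.01. A total of 20 members had a positive and 14 a negative log2 fold change. The median over members was 0.25, and over all genes tested -0.18, with 45.2% of genes positive. That all-gene median moved to 0.09 with DESeq2 size factors, and 24 members were then positive.

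The direction was the same in all 6 library groups for 4 members. Brca1, Rad54l and Chek1 were higher in Mki67-high cells in 6 of 6 groups, which is 8.82% of the members tested beside 2.19% of all genes. Aptx was lower in 6 of 6 groups, 2.94% of members beside a background of 3.20%. The sums of Rad54l alone did not overlap between the classes, with Mki67-high cells higher, beside 0.627% of all genes. No member was lower without overlap, beside 0.451%. The directions of Brca1, Rad54l, Chek1 and Aptx held in 6 of 6 groups without the libraries that stood apart.

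**Figure D2:**
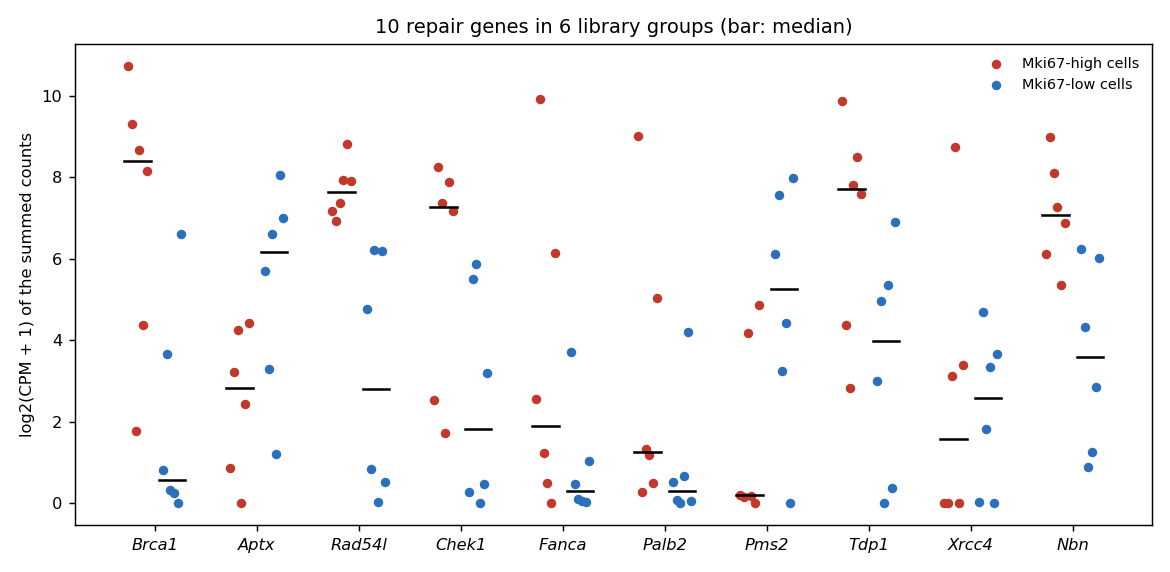
log2(CPM + 1) of the summed counts of 10 repair genes, with 1 point for each of the 6 library groups in Mki67-high cells (red) and Mki67-low cells (blue), library groups 1 to 6 from left to right, and bars at the medians. Every red point of Rad54l lies above every blue point, and the highest red points of Fanca, Palb2 and Xrcc4 stand at 958, 512 and 424 CPM, with the next at 69.7, 31.8 and 9.43 CPM.

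Homologous recombination was the route in which all 6 members tested had a positive log2 fold change, with a median of 1.82. This did not hold for Rad52 with the library group as a term in the fit (-2.82) or without library group 2 (-3.38), for Rad51c without library group 5 (-0.03), for Brca2 when Mki67-low meant no Mki67 count (-0.65), or for Rad52 by limma on the means without the libraries that stood apart (-0.31, or -0.21 when cells with oligodendrocyte, Purkinje cell or interneuron genes were left out too). Brca1 (chr11:101488764-101551955, minus strand), which with BARD1 helps to start strand resection, had sums of 2.4, 343 and 1697 CPM (lowest, median and highest library group) in Mki67-high cells. In Mki67-low cells its sums were 0, 0.491 and 96.7 CPM. Library groups 1, 2, 4 and 6 were high in the first class, at 282 CPM or more, while groups 3 and 5 stayed at 2.4 and 19.7 and so overlapped with the Mki67-low sums. The log2 fold change of Brca1 was 5.13 (SE 1.90, edgeR adjusted p = 0.562). A single cell held 53.2% of all Brca1 counts of the class, and the fold change was 7.99 without library group 6 and 3.70 without library group 1.

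Rad54l (chr4:116094264-116123690, minus strand) encodes a motor protein that moves along DNA during homologous recombination. Its sums were 120, 201 and 447 CPM in Mki67-high cells and 0.0151, 13.4 and 72.8 CPM in Mki67-low cells, without overlap. No other named member was this even across the library groups of the first class. The log2 fold change was 2.78 (SE 1.42, edgeR adjusted p = 0.696). Without the libraries that stood apart the fold change was 4.11, and the lowest Mki67-high sum was still 120 CPM against a highest Mki67-low sum of 71.5 CPM. The value was 5.33 with the library group as a term, and 10.53 where Mki67-low meant no Mki67 count, which left 18 cells in 5 library groups with 6 Rad54l counts in all. Its exons share 1184 bases with those of Lrrc41 on the other strand, and since the strand setting of the counting is not given in the sources used here, reads of the pair could not be told apart. Exons of 18 of the 39 members overlap a gene on the other strand, among them 920 bases of Fanca with Zfp276, 2130 of Trp53bp1 with Tubgcp4, 1826 of Lig3 with Rffl and 877 of the 1422 bases of Apex1 with Pip4p1, and the same limit holds for them.

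Palb2 (chr7:122107262-122132985, minus strand), the bridge between BRCA1 and BRCA2, had sums of 0.213, 1.38 and 512 CPM in Mki67-high cells and 0, 0.248 and 17.3 CPM in Mki67-low cells. One Mki67-high cell of library group 1 held 88.8% of the counts of its class. The log2 fold change was 5.11 (SE 2.4, edgeR adjusted p = 0.674) with 0.43 without library group 1 and 9.29 without group 5. Brca2, a tumour suppressor of this route, had a log2 fold change of 0.87 and was higher in 4 of 6 library groups. Rad52, a strand-annealing protein, had 0.80 but was lower in Mki67-high cells in 4 of 6 library groups and higher in 1. Its median sums were 3.50 CPM in Mki67-high and 61.1 CPM in Mki67-low cells, and 1 cell held 88.7% of its Mki67-high counts. Rad51c had 0.14. Bard1, the partner of BRCA1, did not pass the filter on sums, with sums of 0 to 17.5 CPM in Mki67-high and 0 to 0.952 CPM in Mki67-low cells. It had a count in 15 of 32 Mki67-high cells (46.9%, 30.9 to 63.6, 95% Wilson interval) and 3 of 75 Mki67-low cells (1.37 to 11.1), and a difference of 0.95 in the mean of log2(CPM + 1) over cells. A sum at 0 CPM allows a level of up to 3 counts, which is 0.0453 to 0.320 CPM depending on the sum.

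Among the 9 genes of break sensing and checkpoint signalling, 5 had a positive and 4 a negative log2 fold change, with a median of 0.54. Chek1 (chr9:36708482-36727065, minus strand), the kinase that holds the cell cycle when replication stalls, had sums of 2.30, 153 and 305 CPM in Mki67-high cells and 0, 4.28 and 57.6 CPM in Mki67-low cells. Groups 1 and 4 were low in both classes, so that the ranges overlapped although each group was higher in its Mki67-high cells. The log2 fold change was 2.64 (SE 1.74, edgeR adjusted p = 0.764), with 4.74 when the library group was a term and 10.39 against the 18 cells without a Mki67 count, which held 6 Chek1 counts. Nbn (chr4:15957925-15992589, plus strand) had sums of 39.9, 135 and 504 CPM in Mki67-high cells and 0.851, 12.5 and 74.5 CPM in Mki67-low cells, and was higher in 5 of 6 groups. The log2 fold change of Nbn was 2.81 (SE 1.23, edgeR adjusted p = 0.658).

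Other members of this route had smaller fold changes than Chek1 and Nbn in the sums. Atm and Atr, the kinases that start the response to breaks and to stalled forks, had log2 fold changes of 1.60 and -0.15. Chek2, the effector kinase of ATM, had 1.51 and Topbp1, the activator of ATR, 0.54. Rad50 and Mre11a, the other subunits of the MRN complex, were at -0.52 and -0.01. Trp53bp1, which favours end joining over resection, was lower in 5 of 6 library groups, at 26.3, 38.9 and 637 CPM in Mki67-high cells and 85.3, 400 and 689 CPM in Mki67-low cells. This was a log2 fold change of -1.28 (SE 0.91, edgeR adjusted p = 0.789).

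End joining genes differed in direction in the sums, with 3 positive and 1 negative log2 fold change, whereas all 4 tested on the mean of log2(CPM + 1) were positive, with a median difference of 0.70. Xrcc5 and Xrcc6, the subunits of the Ku ring that grips DNA ends, had log2 fold changes of 0.09 and -1.37, and Prkdc, the kinase that Ku recruits, 0.25. Xrcc5, the highest member of the route, had sums of 0, 35.5 and 172 CPM in Mki67-high cells and 0.0232, 2.38 and 230 CPM in Mki67-low cells, which overlapped throughout. Xrcc4 (chr13:89774027-90089608, minus strand), the scaffold of the end-joining ligase, had sums of 0, 3.87 and 424 CPM in Mki67-high cells and 0, 5.81 and 24.7 CPM in Mki67-low cells. Its log2 fold change of 3.36 (SE 2.39, edgeR adjusted p = 0.788) rested on library group 4, where 1 cell held 93.0% of the counts of the class. Without that group the value was -1.56. Lig4, the ligase of the route, did not pass the filter on sums.

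Base excision and single-strand break repair split in the sums, with 4 positive and 5 negative log2 fold changes among the 9 members tested. On the mean of log2(CPM + 1), 7 of the 9 were positive, with a median difference of 1.47. Aptx (chr4:40682382-40703194, minus strand), which removes AMP from abortive ligation ends, had sums of 0, 6.37 and 20.2 CPM in Mki67-high cells and 1.31, 73.9 and 264 CPM in Mki67-low cells. It was the member lower in 6 of 6 library groups, although the ranges overlapped because library groups 2 and 4 were low in both classes. The log2 fold change was -3.80 (SE 1.62, edgeR adjusted p = 0.652), and it turned to 0.84 when only cells without any Mki67 count were taken as Mki67-low. Tdp1 (chr12:99884517-99955219, plus strand), which frees DNA ends from trapped topoisomerase, had sums of 6.07, 207 and 928 CPM in Mki67-high cells and 0, 18.5 and 118 CPM in Mki67-low cells. For Tdp1 the log2 fold change was 3.40 (SE 1.57, edgeR adjusted p = 0.673), and it was higher in 5 of 6 groups. Without library group 1 it was 2.13.

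Parp1 had sums of 3.31, 311 and 1900 CPM in Mki67-high cells and 16.1, 137 and 408 CPM in Mki67-low cells, with a log2 fold change of 1.76. Parp2, the highest member of all per kilobase, had 49.3, 151 and 373 CPM against 21.0, 146 and 408 CPM and a log2 fold change of -0.02. The Parp2 ranges of both classes overlapped almost wholly. Polb was lower in 5 of 6 groups, at 0.973, 17.5 and 150 CPM against 4.87, 174 and 234 CPM, with a log2 fold change of -2.44 (SE 1.20, edgeR adjusted p = 0.681). Apex1, the nuclease that cuts at abasic sites, was at 1.16, and Xrcc1, the scaffold of the route, at 0.24. Lig3, the ligase partner of XRCC1, was at -0.90, and Ung, which removes uracil from DNA, at -1.78.

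In the Fanconi anaemia pathway, Fanca (chr8:123268300-123318576, minus strand), a subunit of the core ubiquitin ligase, had the largest log2 fold change of all members at 6.30 (SE 2.45, edgeR adjusted p = 0.592). Its sums were 0, 3.10 and 958 CPM in Mki67-high cells and 0.0251, 0.230 and 12 CPM in Mki67-low cells. One cell held 63.2% of the counts of its class, and the value was 2.27 without library group 2 and 9.34 without library group 1. Fancd2, the clamp that the ligase modifies, had sums of 0, 2.91 and 135 CPM in Mki67-high cells and 0, 0.459 and 147 CPM in Mki67-low cells, with a log2 fold change of -0.01. In mismatch repair, Msh6, part of the mismatch sensor, was higher in 5 of 6 groups at 0.707, 41.5 and 469 CPM against 0.0251, 76.9 and 151 CPM, with a log2 fold change of 0.69. Pms2 (chr5:143909964-143933968, plus strand), part of the nuclease that acts after the sensor, had 0, 0.141 and 28.3 CPM against 0, 44.2 and 250 CPM. Its log2 fold change was -3.96 (SE 2.08, edgeR adjusted p = 0.705), and its exons overlap those of Rsph10b and Gm42421 on the same strand. Both nucleotide excision repair members tested were negative, Ercc1 at -1.04 and Xpc, the sensor of bulky lesions, at -0.21. Ercc1 had sums of 0, 67.0 and 84.9 CPM in Mki67-high cells and 51.0, 116 and 176 CPM in Mki67-low cells.

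**Figure D3:**
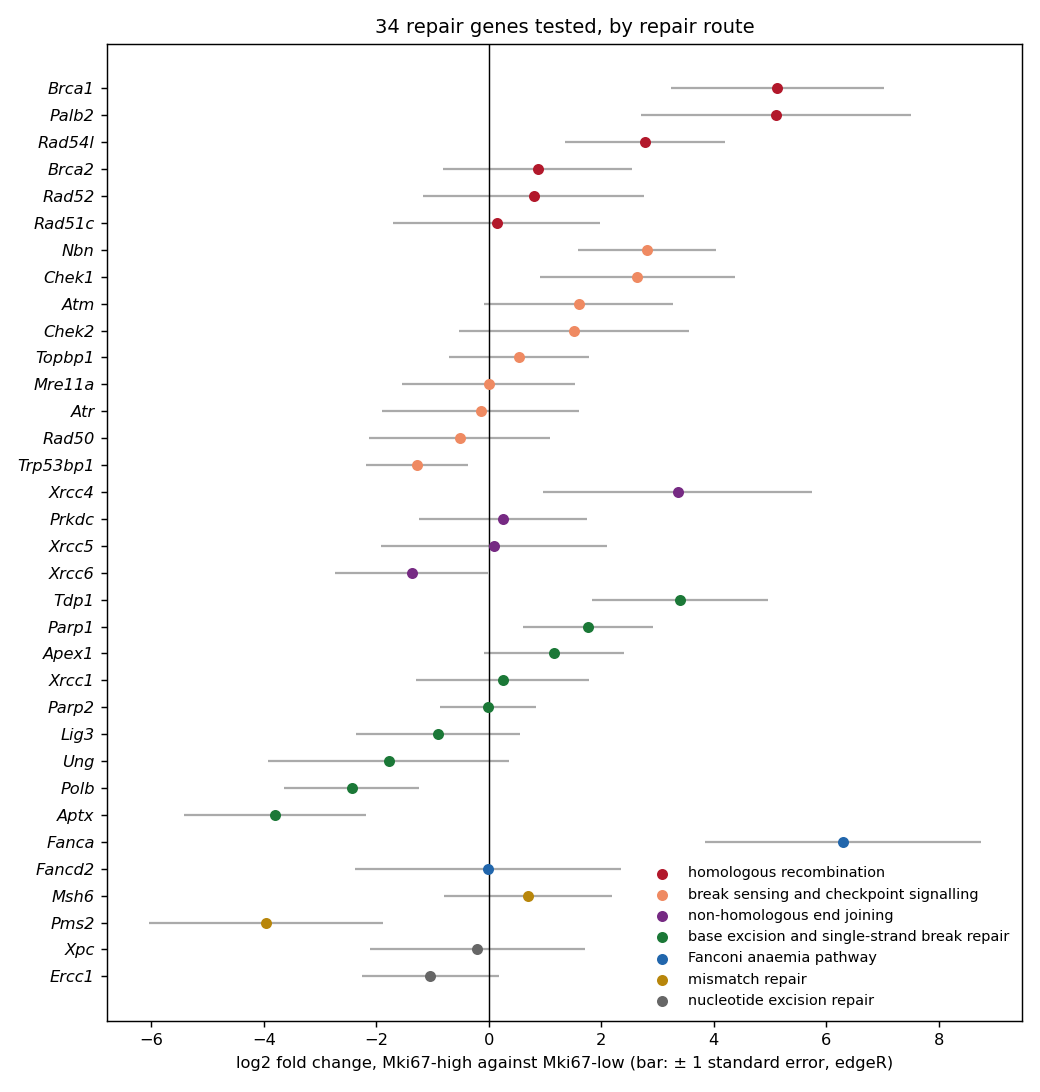
Log2 fold change between Mki67-high and Mki67-low sums of the 34 repair genes tested, with bars of ± 1 standard error from edgeR, ordered within repair route. All 6 homologous recombination genes lie at or above 0.14, base excision genes run from -3.80 to 3.40, and Fanca lies highest at 6.30.

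Single cells held these transcripts unevenly. The cell with the most counts of a member held a median of 40.8% of all its counts in Mki67-high cells and 46.9% in Mki67-low cells. For 13 of 39 members 1 cell held over 50% of the counts of the Mki67-high class. Among the 22 members found in every Mki67-high sum, the highest library group exceeded the lowest by a median of 154-fold. The share of cells that express a member was therefore read beside its level.

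By that measure, as for most genes, members were found in more of the Mki67-high cells. At a level of at least 10 CPM, the share was higher in Mki67-high cells for 33 members and lower for 6, with a median share over members of 25.0% of Mki67-high and 6.67% of Mki67-low cells. Members higher were 84.6% of the list, beside 63.1% of all 15972 genes, with 19.9% of all genes lower and medians of 9.38% and 4.0% of cells. The 8 members with a higher share in 6 of 6 library groups were Brca1, Rad54l, Nbn, Atm, Xrcc1, Parp1, Apex1 and Tdp1. These were 20.5% of the members, beside 3.37% of all genes. No member had a lower share in 6 of 6 groups, beside 0.150% of all genes. Without the libraries that stood apart, the median shares were 25.0% and 6.85%, and Rad54l, Nbn, Parp1 and Apex1 remained higher in 6 of 6 groups, with 1.97% of all genes. The same 4 were higher in 6 of 6 groups when cells with oligodendrocyte, Purkinje cell or interneuron genes were left out as well.

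Brca1 was at 10 CPM or more in 13 of 32 Mki67-high cells (40.6%, 95% Wilson interval 25.5 to 57.7) and in 3 of 75 Mki67-low cells (4.0%, 1.37 to 11.1). Rad54l was at this level in 14 of 32 cells (43.8%, 28.2 to 60.7) against 4 of 75 (5.33%, 2.09 to 12.9). Atm had 14 of 32 cells against 3 of 75, and Parp1 21 of 32 (65.6%, 48.3 to 79.6) against 14 of 75 (18.7%, 11.5 to 28.9). Some genes were about as widespread in both classes. Trp53bp1 was at 10 CPM in 59.4% of Mki67-high and 61.3% of Mki67-low cells, and Polb in 40.6% and 49.3%, so that 2 of the most widespread repair genes had wide, overlapping intervals. Aptx was found at this level in 12.5% (4.97 to 28.1) and 17.3% (10.4 to 27.4) of cells, also overlapping, and with a single count in 43.8% (28.2 to 60.7) and 30.7% (21.4 to 41.8).

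**Figure D4:**
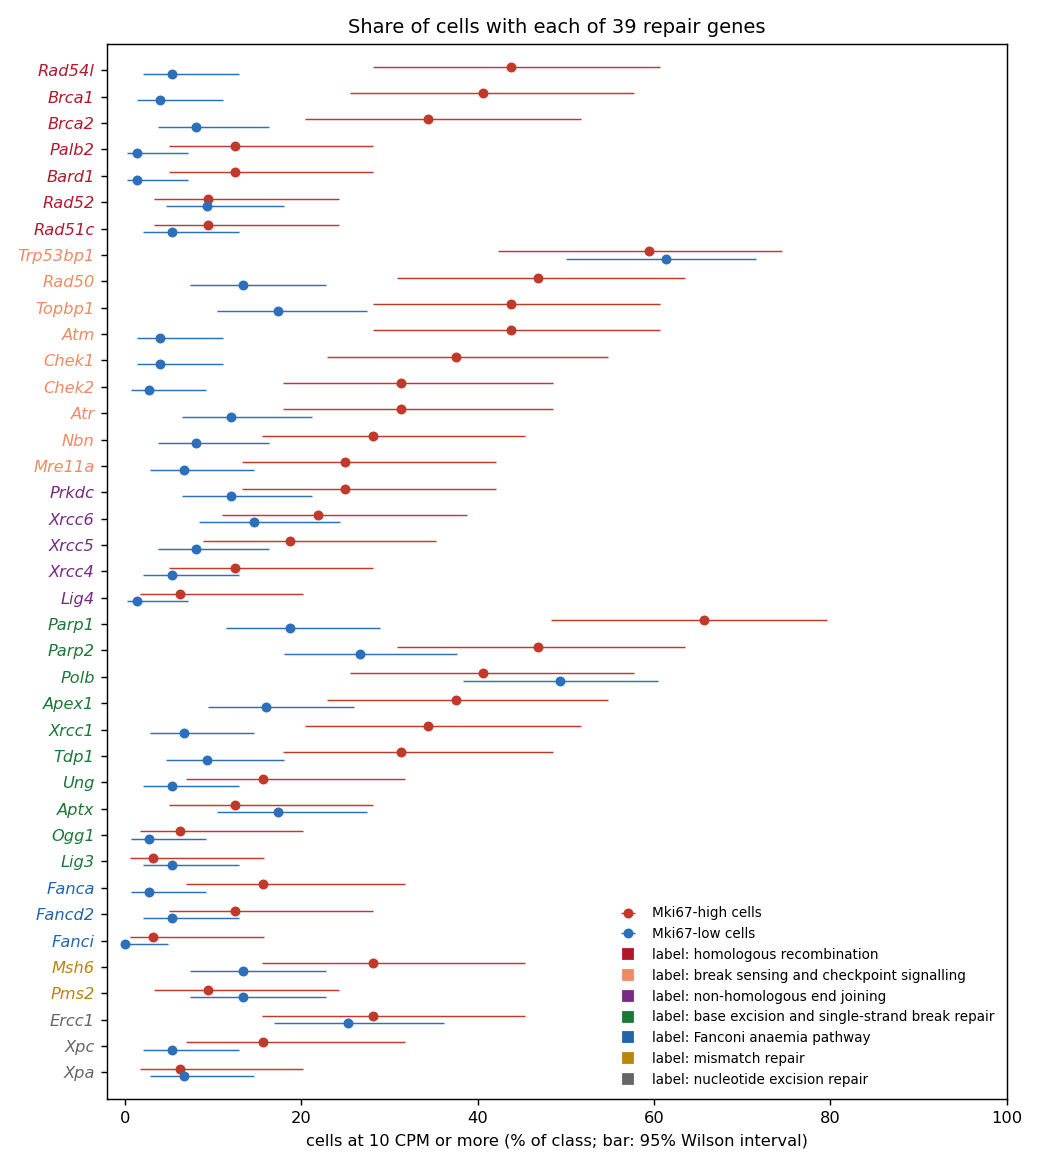
Share of the 32 Mki67-high cells (red) and 75 Mki67-low cells (blue) with each of the 39 repair genes at 10 CPM or more, with 95% Wilson intervals, ordered within repair route and with gene names coloured by route. Red points lie to the right of blue points for 33 genes, and Trp53bp1, Polb, Aptx, Pms2, Lig3 and Xpa show the reverse.

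The set of members that passed in every library group depended on the level asked for. With a single count, 5 members were higher in 6 of 6 groups (Rad50, Mre11a, Atm, Atr and Chek2), which is 12.8% of members beside 3.86% of all genes. Median shares were then 50% and 30.7%. The exact two-sided sign-flip test over the 6 library groups, run for all 39 members, cannot give a p below 0.03125. It gave exact p = 0.03125, unadjusted, for these 5 members at a single count and for the 8 named above at 10 CPM, which restates that all 6 groups had 1 direction. At a single count Brca1 stood at exact p = 0.0625, with 5 groups higher and 1 equal.

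Counted cell by cell, Mki67-high cells held 3 to 35 of the 39 genes at 10 CPM or more, with a median of 8.5, and Mki67-low cells 1 to 13 with a median of 4. The same cells also held more genes of every kind at that level, with medians of 2168.5 and 1679. Per 1000 genes at 10 CPM the medians were 3.49 and 2.36 repair genes. The cells with the most repair genes were the pair with the most genes detected. Without the pair, the range of Mki67-high cells was 3 to 20 with a median of 8, and the median per 1000 genes was again 3.49. After thinning to equal depth the median number of members with a count was 13 in Mki67-high and 9 in Mki67-low cells, and that of all genes with a count 3891 and 3203.

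**Figure D5:**
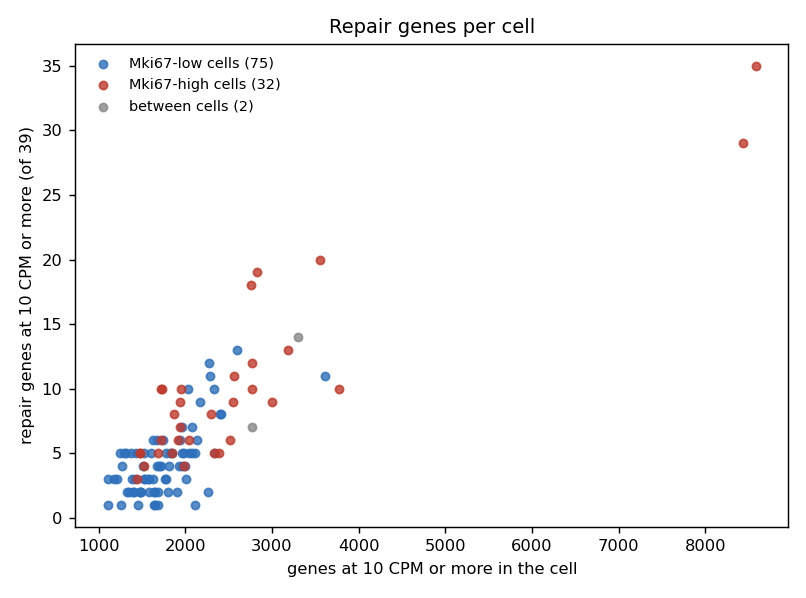
Number of the 39 repair genes at 10 CPM or more in each of 109 cells against the number of all genes at that level, for Mki67-high (red), Mki67-low (blue) and the 2 cells between (grey). Both counts go up together, Mki67-low cells reach 13 repair genes at most, and a pair of Mki67-high cells stands apart with 8432 and 8585 genes and 29 and 35 repair genes.

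A mean over cells of log2(CPM + 1), in which each cell counts equally, was compared across the same library groups with limma. Here 36 members were tested and 31 had a positive difference, 86.1% beside 74.2% of all genes. The median difference was 1.19 log2 units over members and 0.31 over all 11404 genes tested. In this comparison 14 members were higher at an unadjusted p-value under 0.05, 38.9% beside 11.8% of all genes, and none of the 36 was lower, beside 1.20%. Rad54l was the only member with a limma adjusted p-value under 0.05, with a difference of 2.92 (SE 0.63, adjusted p = 0.0295), beside 1.09% of all genes. With the library group as a term in the limma fit its adjusted p was 0.0668. No member was under 0.01, beside 0.219%. Break sensing and checkpoint genes had the highest route median at 1.92, with 8 of 9 positive, whereas nucleotide excision repair genes had a median of 0.02. Base excision and single-strand break repair had a median of 1.47 with 7 of 9 positive, and homologous recombination 1.18 with 7 of 7. Parp1, Brca1 and Rad54l had the largest differences at 3.10, 3.02 and 2.92, and Polb the lowest at -1.23. Without the libraries that stood apart, 28 of 36 members were positive, the member median was 1.04 beside 0.16 over all genes, and the value of Rad54l was 3.29 with a limma adjusted p-value of 0.0226.

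The other genes of these routes were counted in the same way. Of 82 further repair genes on a list of the same 7 routes, 78 were in the table and 59 were tested. edgeR called none of the 59 at 0.01 or 0.05. Before adjustment 8 had a p-value under 0.05. DESeq2 on the sums called 8 of the 78 at 0.01, beside 372 of all 15972 genes. A total of 34 were positive and 25 negative, with a median log2 fold change of 0.35. By route, 11 of 12 homologous recombination genes were positive with a median of 1.59, and 4 of 9 base excision genes with a median of -1.55. There were 7 genes higher in 6 of 6 library groups, 11.9% of those tested, and none lower. Usp1, which strips ubiquitin from FANCD2, had sums of 216, 307 and 703 CPM in Mki67-high cells and 0.652, 11.6 and 32.6 CPM in Mki67-low cells, without overlap. Its log2 fold change was 4.67 (SE 1.06, edgeR adjusted p = 0.200), and limma on the means gave an adjusted p of 0.00306, or 0.0134 with the library group as a term. H2afx, the histone variant that marks breaks, had sums of 8.04, 33.6 and 102 CPM against 0, 0.0831 and 3.45 CPM, also without overlap. Rpa1, which coats single-stranded DNA, had a log2 fold change of 4.99, Mdc1, the reader of the H2AX mark, 3.18, and Cetn2, a partner of XPC, 2.13. Lig1, the ligase of replication, had 1.67. Clspn, the adaptor that passes the signal from ATR to CHEK1, had the largest value at 8.79 and was higher in 5 groups.

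The study divided the cells of its precursor cluster by whether a cell held any Notch2 count. Here the same rule divided the Mki67-high cells, and their counts were summed by library group. The cells were thus chosen in another way than in the study, and the comparison does not repeat its own. There were 20 Notch2-positive cells in 6 library groups and 12 Notch2-negative cells in 5. The Notch2-negative sums of library groups 1 and 6 were 1 cell each, and that of group 2 was 2 cells. Of 29 members tested, edgeR called none at 0.01 or 0.05, and the lowest adjusted p-value was 0.223. There were 6 members with an unadjusted p-value under 0.05, Lig3, Xrcc6 and Parp2 higher and Msh6, Tdp1 and Fancd2 lower in Notch2-positive cells, beside 11.2% of all 6911 genes. Parp2 had sums of 90.7, 269 and 421 CPM in Notch2-positive cells and 0, 0.485 and 8.60 CPM in Notch2-negative cells, without overlap, as did 1.30% of all genes. Its log2 fold change was 6.57 (SE 2.33, edgeR adjusted p = 0.292), and DESeq2 gave an adjusted p of 0.000193. Xrcc6 was found in 9 of 20 and 2 of 12 cells and had a DESeq2 adjusted p of 0.00118 and an edgeR adjusted p of 0.252. At 0.01 DESeq2 called 2 of 39 members, beside 446 of all 15732 genes. The libraries with the most genes detected were both Notch2-positive. Without the libraries that stood apart the Parp2 sums were 55.8 to 601 CPM in Notch2-positive cells, still above those of Notch2-negative cells, and the edgeR adjusted p was 0.607.

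Promoter sequence was examined because the members higher in 6 of 6 library groups were homologous recombination and checkpoint genes. RefSeq promoter windows of GRCm38.p6, from 250 bases before to 50 bases after a start, were found for 33 of 39 members, in 37 windows. Rad50, Nbn, Prkdc, Polb, Fancd2 and Xpc had no entry. The E2F words TTTCCCGC, TTTGGCGC, TTTCGCGC and TTTGCCGC, searched on both strands, were in 8 of 37 member windows, 21.6%, beside 2.26% of all 32851 windows and 9.38% of those of the other repair genes. The cell cycle homology region words TTTGAA and TTCGAA were in 10.8% of member windows and 19.2% of all, and CCAAT in 45.9% and 37.4%. The sequences below are shown because they hold the E2F word before the start in 5 members, chosen by the word, and are printed on the strand of the gene with the word or its complement in capitals. They lie at positions -209, -152, -168, -129 and -46 from the RefSeq start.
Bard1, chr1:71103163-71103192, minus strand: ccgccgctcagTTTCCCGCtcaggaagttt
Chek2, chr5:110839820-110839849, plus strand: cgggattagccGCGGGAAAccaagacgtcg
Brca2, chr5:150522442-150522471, plus strand: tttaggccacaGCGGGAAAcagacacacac
Topbp1, chr9:103305187-103305216, plus strand: ccgctcggttgGCGCGAAAgtcggttcccg
Xrcc6, chr15:82016312-82016341, plus strand: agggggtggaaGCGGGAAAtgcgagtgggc

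Rad51c and Msh6 held the word at or after the start. None of Brca1, Rad54l and Chek1, the members higher in 6 of 6 library groups, held an E2F word in the window. CCAAT was held by named members of both directions. Aptx, the member lower in 6 of 6 groups, held it at -69, and Pms2, with a negative log2 fold change, at -153, -108 and -33. Fanca and Palb2 held CCAAT too. Brca1 and Rad54l held CCAAT, shown here in capitals, at position -86 of Brca1 and -50 of Rad54l, and Tdp1 held TTTGAA at -39.
Brca1, chr11:101552026-101552052, minus strand: agactaggtagCCAATcgcaaacccag
Rad54l, chr4:116123725-116123751, minus strand: actgaacgcagCCAATaggggactgtg
Tdp1, chr12:99884468-99884495, plus strand: gcgccggcgagTTTGAActgcgcgcatg

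The 7 members with an E2F word had a median difference of 1.42 in the mean of log2(CPM + 1), and the 26 matched members without one 1.20. Among those tested on sums, 5 of 6 and 13 of 22 had a positive log2 fold change. A word is a description of these windows only.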

How the data were processed

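Single GCPs of P7 C57BL/6 cerebella were captured on C1 Fluidigm chips and sequenced by Smart-seq. The authors aligned reads to mm10 with STAR 2.4.1d, counted them per gene with HTSeq 0.6.1 and deposited raw counts of 109 cells, without normalization. The annotation and strand setting are not given in the sources used here. The 39 members and all lists were chosen with earlier results of these data known.

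CPM is 1000000 times a count over the total of its cell or sum. Counts were summed per Mki67 class and library group, filtered with filterByExpr, scaled by TMM and compared in edgeR 4.0.16 with Benjamini-Hochberg adjustment over all genes tested, at the study's limit of 0.01. Mki67 set the classes and was not tested. DESeq2 1.42.0 and limma 3.58.1 on means of log2(CPM + 1), for genes counted in at least 10 cells, were alternatives, as were a replicate block, other scalings, no filter, other Mki67 limits, thinned counts and leaving out cells or library groups. All counts over members at 10 CPM and all values without the libraries that stood apart were added after the data were seen. These libraries were cells with 5 of 8 astroglial or 3 microglial markers at 50 CPM or more, under 100000 counts, or over 10000 genes detected. Cells with 4 of 7 oligodendrocyte or 3 of 5 Purkinje cell and interneuron markers at 50 CPM or more were left out in a further alternative. The sign-flip test of shares, planned for the named members at a single count, was run for all members and also at 10 CPM. Named members were those with 1 direction in 6 of 6 library groups, then the largest fold changes up to 10, and the highest per kilobase in each route. Other genes were named after their values were seen. Exons and coordinates are those of GENCODE for GRCm38, the assembly of mm10, and promoters those of RefSeq for GRCm38.p6. Shares carry Wilson intervals at 95% confidence. The edgeR step was run on simulated sums with known fold changes. The outcome is not given here, so the size of change that the step could miss is not stated. R 4.3.3, Python 3.11.15 and scipy 1.17.1 were used.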

Additional observations from a re-analysis of the deposited data

Results flagged for a closer look

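In 2 of the 20 sets of 6 sums of the 10 members named for level, 1 sum lay far from the other 5 on the scale of log2(CPM + 1), and chance gives about 1 in 20 such sets. On the CPM scale 9 of the 20 sets had such a sum, the Mki67-high sets of Fanca and Xrcc4 among them. Fanca in the Mki67-low cells of library group 1 was at 12 CPM, with the next highest sum at 1.05 CPM. Palb2 in the Mki67-low cells of library group 5 was at 17.3 CPM, with the next highest at 0.573 CPM.

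A cell of library group 2 with 4122808 counts and 21.3 CPM of Mki67 lay between the classes and entered no comparison. In this cell Msh6 was at 737 CPM and Bard1 at 44.6 CPM, above the highest sum of either class, which was 469 CPM for Msh6 and 17.5 CPM for Bard1. A single cell is here set beside sums of several cells.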

How the results depend on the processing

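No member was called for Mki67 class at 0.01 under any alternative, with 20 positive members in the first fit, 24 with total counts only, 22 with the replicate block and 31 with limma on means with or without that block. The number of genes called over all tested, 2 in the first fit, was 0 with the replicate block, 6 with DESeq2 size factors or at 0.05, 372 with DESeq2, 25 with limma on means, 6 with its block, 17 without the libraries that stood apart, 18 when cells with oligodendrocyte, Purkinje cell or interneuron genes were left out as well, 0 for cells without a Mki67 count, and 1 for Mki67-high from 500 CPM, for thinned counts, and without cells of unusual depth, with astroglial genes, with microglial genes or any of these, or also with oligodendrocyte, Purkinje cell or interneuron genes. It was 0 without library groups 2, 4, 5 or 6 and 1 without groups 1 or 3. Of the other repair genes 8 were called by DESeq2 and 1 by limma, with all cells or without those that stood apart, but 0 by limma with the replicate block. For Notch2 class DESeq2 called 2 members, Parp2 and Xrcc6, beside 446 of all 15732 genes. Members with a higher share in every library group numbered 5 at a single count, 10 at 5 counts, 8 at 10 CPM, 6 with thinned counts and 4 at 10 CPM without the libraries that stood apart. At a single count they numbered 5 to 10 when a library group was left out, with 10 without group 1. A higher share in 5 groups was then enough, so these counts are not like those over 6 groups. The share of all genes at 5 counts, with thinned counts or with a group left out is not given here. For the 10 members named for level, 243 of 246 alternative values had the same sign and stayed uncalled. The others were Aptx at 0.84 with Mki67-low cells free of Mki67 counts, and Xrcc4 at -0.21 with the replicate block and -1.56 without library group 4, against up to 4.45 when another group was left out, and the cause was not tested. Sums of at least 2 cells were identical to the first fit. The first edgeR fit, DESeq2 and limma without the block did not treat the classes of a library group as pairs. Counts over 6 of 6 groups and the sign-flip test did compare the classes within each group. Deviations from the class means correlated by 0.0201 to 0.0558 between the classes of a group. In 4 of 6 groups this was more than with any other group. The biological coefficient of variation over sums was 172%, or 153% with the replicate block. In single libraries of this depth a member was often held by few cells.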
